A study of Mus musculus with 6 samples.

Results

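The *Dlk1-Dio3* locus is an imprinted interval of mouse chromosome 12, and its RNA was compared here between WT advanced embryonic stem cells (ASCs) and *Bdh2*-knockout ASCs. Members were the rows of the count table named *Begain*, *Dlk1*, *Meg3*, *Rtl1*, *Rian*, *Mirg* and *Dio3*. All 7 of these were found among 54715 genes, and all 7 passed the filter on low counts that left 16758 genes for testing. ASCs are mouse embryonic stem cells cultured with activin A, BMP4, CHIR99021 and LIF. The WT line came from a cross of a 129/sv female with a GOF/GFP male, so that cells of both genotypes carried an *Oct4*-GFP reporter. The *Bdh2*-/- ASCs were a single clone made with CRISPR/Cas9 that had lost coding sequence of both alleles of *Bdh2*, a gene for a 3-hydroxybutyrate dehydrogenase. Promoter and small RNA sequences were taken from reference tables.

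In such imprinted intervals, one parental chromosome expresses protein-coding genes and the other expresses non-coding RNAs. *Dlk1*, *Rtl1* and *Dio3* are expressed from the paternal chromosome, and *Meg3*, *Rian* and *Mirg* from the maternal one, under a methylated control region between *Dlk1* and *Meg3*. The maternal RNAs carry large clusters of C/D box snoRNAs and microRNAs. In cultured pluripotent cells the maternal RNAs are known for being silenced in some lines when that region gains methylation. The counts do not separate the alleles, so the parental origin of the reads was not measured.

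Each genotype had 3 libraries, with 18927748 to 24945216 counts on genes in WT ASCs and 24320119 to 28333541 in *Bdh2*-knockout ASCs. At these depths 3 counts equal 0.106 to 0.158 CPM (counts scaled to the library size), which covers counting error only. Nothing states that replicates were separate cultures, so p-values measure the spread between these samples, which may be technical. The targeted gene *Bdh2* had 203, 193 and 209 counts in WT and 164, 136 and 129 in knockout libraries, and its knockout CPM was 57.7% of the WT CPM. Pluripotency markers were abundant in every library, at a summed 8246 to 8325 CPM in WT and 8178 to 8284 CPM in knockout ASCs. Of 12 tested, 7 were higher and 1 lower by edgeR, beside 21.0% and 20.8% of all tested genes, with a median log2 fold change of 0.17. With library totals 4 were higher and 2 lower, beside 16.3% and 26.6%. With a score of hepatocyte transcripts as a covariate 2 were higher and 1 lower, beside 15.4% and 14.5%. Of 17 adult hepatocyte transcripts tested, 13 were lower in knockout ASCs, beside 20.8% of all tested genes. They stood apart in WT replicates 1 and 2, at 564 and 342 summed CPM over 18 genes. The same sum was 54.1 CPM in WT replicate 3, and 42.8, 159 and 31.0 CPM in knockout replicates 1, 2 and 3. None of the 18 was at or under 3 counts in every library. The median log2 fold change of the 17 was -2.08 by edgeR, and 0.53 without WT replicates 1 and 2. These libraries were picked by the same transcripts, so that turn was fixed in advance. On all 6 libraries DESeq2 called 0 of 18 lower (3 at an unadjusted p under 0.05), though the median was still -2.12. The 7 genes and the gene lists were also fitted without WT replicates 1 and 2, a choice made after seeing the data. That fit leaves 1 WT library, so it does not measure the spread between WT samples, and its calls are not relied on.

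All 7 genes were counted in every WT library, and the non-coding RNAs made up nearly all of the signal. *Meg3*, *Rian* and *Mirg* together held 98.2% to 98.8% of the counts of the 7 genes in the 6 libraries. The 7 genes together held 0.101% to 0.127% of each library. *Rian* ranked between 169 and 262 among all genes by count, and *Meg3* between 227 and 389. The maternally expressed RNAs were thus counted at high levels in both genotypes.

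Levels of different genes were compared per length, in FPKM (counts scaled to the gene length and the library total). *Rian* was highest at 33.8 ± 2.53 FPKM in WT ASCs (SD, n = 3), followed by *Meg3* at 27.8 ± 3.52. *Mirg* followed at 8.01 ± 0.701 FPKM. The protein-coding genes were far lower, at 1.205 ± 0.155 FPKM for *Rtl1*, 0.828 ± 0.0833 for *Begain*, 0.627 ± 0.203 for *Dio3* and 0.524 ± 0.00713 for *Dlk1*. The ranges of *Begain* and *Dio3* overlapped in WT ASCs, as did those of *Dio3* and *Dlk1*, whereas the ranges of the other neighbours in this order did not. In knockout ASCs the first 4 places were unchanged, at 30.0 ± 1.31 FPKM for *Rian*, 22.7 ± 1.01 for *Meg3*, 8.11 ± 0.343 for *Mirg* and 1.17 ± 0.115 for *Rtl1*. *Dlk1* took the fifth place at 1.05 ± 0.164 FPKM, where its range overlapped that of *Rtl1* and lay above that of *Dio3* at 0.770 ± 0.0690. *Begain* was last at 0.709 ± 0.0928 FPKM, where its range overlapped that of *Dio3*.

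**Figure D1:**
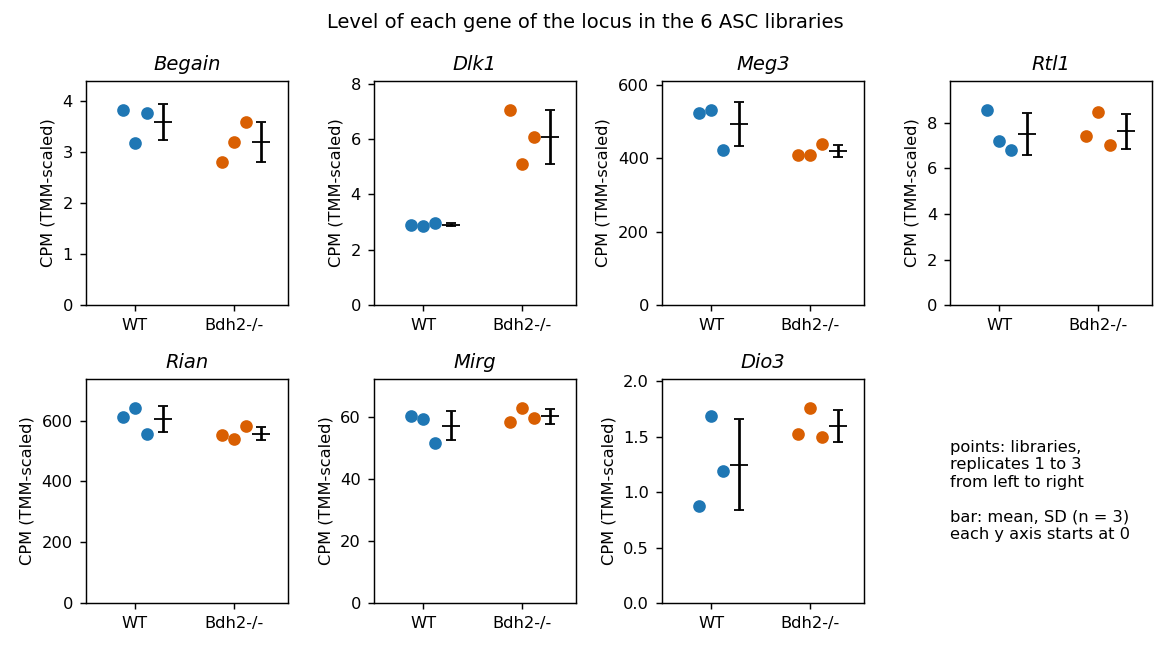
Level of each gene of the locus in the 3 WT and 3 *Bdh2*-/- libraries, in CPM scaled with TMM factors, with each vertical axis starting at 0. Points are libraries in the order of replicates 1 to 3 and bars show the mean and SD. The *Dlk1* points of the genotypes do not overlap, and those of each of the other 6 genes do.

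Of the 7 genes, 1 was higher in *Bdh2*-knockout ASCs, 1 was lower and 5 did not pass the test (edgeR quasi-likelihood test, adjusted p under 0.05 over 16758 genes). Over all tested genes 41.7% were called, with 21.0% higher and 20.8% lower, so the share called in the locus did not exceed that of the whole table. The genotypes did not overlap for 1 of the 7 genes, against 52.4% of all tested genes. The log2 fold changes of the 7 genes had a median of 0.03, beside -0.01 over all tested genes.

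*Dlk1* encodes a transmembrane protein with epidermal growth factor-like repeats that is a non-canonical ligand of Notch receptors and an inhibitor of adipogenesis. It spans chr12:109452823-109463336 on the plus strand of GRCm38, and no exon of another gene overlaps its exons. It was counted 56, 58 and 75 times in WT replicates 1, 2 and 3. In knockout replicates 1, 2 and 3 it was counted 194, 139 and 146 times. Each knockout library lay above each WT library. Scaled CPM were 2.91 ± 0.0519 in WT and 6.08 ± 0.972 in knockout ASCs (SD, n = 3). The log2 fold change was 1.06 with an SE of 0.16 (edgeR adjusted p = 1.57e-04), a 2.09-fold rise with a 95% interval of 1.65 to 2.63. *Dlk1* kept this call in all 16 alternatives, between 0.91 and 1.18 on the log2 scale, with a highest adjusted p of 0.00506. Without WT replicates 1 and 2 its log2 fold change was 1.03. It remained a lowly expressed gene in both genotypes.

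Markers of other cells were set beside this rise, since *Dlk1* is used in several embryonic lineages, and their calls were read beside the 21.0% higher and 20.8% lower of all tested genes. Primitive endoderm markers rose as well, with 13 of 15 tested members higher and 2 lower (*Hnf4a* and *Ttr*, named after their values were seen), and with a summed 277 to 301 CPM in WT and 671 to 763 CPM in knockout ASCs. With the hepatocyte covariate 13 were higher and 0 lower by edgeR (0 also at an unadjusted p under 0.05). DESeq2 on all 6 libraries called 13 higher and 0 lower (1 at an unadjusted p under 0.05). The median of the 15 was 2.04 on the log2 scale, and 2.17 without WT replicates 1 and 2. Among those that rose, the transcription factor gene *Sox17* had a log2 fold change of 3.00 and *Gata6* one of 2.02. Neuronal markers had 3 of 8 members higher, at 192 to 201 summed CPM in WT and 268 to 282 in knockout ASCs. Fibroblast markers had 3 of 10 members lower, at 69.1 to 83.2 summed CPM in WT and 58.4 to 65.8 in knockout ASCs, with *Lum* and *Dpt* at or under 3 counts in every library. Myogenic markers had 2 of 3 tested members lower, with *Myog* and *Actc1* at or under 3 counts in every library, at 15.7 to 17.7 summed CPM in WT and 12.9 to 13.4 in knockout ASCs. The median log2 fold change was 0.41 for neuronal, -0.33 for fibroblast and -0.53 for myogenic markers. It was 0.07, -0.46 and -0.33 in this order without WT replicates 1 and 2. The part of these cells in the *Dlk1* difference was not tested, and more cells of a type cannot be told apart from more RNA per cell in bulk libraries.

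The sequence before each start is shown for the genes that passed the test. The RefSeq tables give windows of 250 bases before and 50 bases after the start for 6 of the 7 genes. The *Dlk1* window, chr12:109452573-109452872 on the plus strand (GRCm38.p6), held 9 CpG dinucleotides, which are in capitals, against a median of 7 over 32851 windows.
*Dlk1*: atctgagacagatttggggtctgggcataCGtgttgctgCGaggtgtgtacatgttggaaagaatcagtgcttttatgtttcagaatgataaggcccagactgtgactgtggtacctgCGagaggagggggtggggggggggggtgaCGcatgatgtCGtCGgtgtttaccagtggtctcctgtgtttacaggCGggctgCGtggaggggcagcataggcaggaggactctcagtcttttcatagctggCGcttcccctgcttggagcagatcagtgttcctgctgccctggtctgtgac
The window of the upstream *Meg3* start, chr12:109540746-109541045 on the plus strand, held 13 CpG dinucleotides. Its capitals mark matches to 4 of the 5 motifs searched. These were TGCCGC (read here as its reverse complement), the hexamer bound by the imprint-protecting factor ZFP57, CCAAT, the cAMP response element TGACGTCA and TATAA, at -190, -100, -57 and -25 from the start.
*Meg3*: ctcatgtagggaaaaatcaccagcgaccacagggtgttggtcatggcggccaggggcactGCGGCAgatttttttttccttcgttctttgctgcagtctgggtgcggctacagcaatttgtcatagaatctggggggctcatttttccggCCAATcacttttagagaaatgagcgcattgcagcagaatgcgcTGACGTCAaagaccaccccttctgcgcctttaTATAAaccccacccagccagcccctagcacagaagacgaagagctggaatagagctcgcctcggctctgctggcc
The motifs were searched on both strands except TATAA, which was read in the direction of the gene, and the fifth was the GC box GGGCGG. TGACGTCA was found in 1.79% of all windows, TGCCGC in 11.6%, TATAA in 17.5%, GGGCGG in 35.7% and CCAAT in 37.4%. The *Dlk1* window held none of the 5, and the *Dio3* window held 2 matches to CCAAT, 4 to GGGCGG and 1 to TATAA. Binding and methylation were not measured at these windows.

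*Meg3* is a nuclear long non-coding RNA that lies at the start of the maternally expressed RNAs. It spans chr12:109541001-109571726 on the plus strand. It was counted 10170, 10716 and 10693 times in WT replicates 1, 2 and 3, which are 524, 531 and 423 scaled CPM. In knockout replicates 1, 2 and 3 it was counted 11297, 11166 and 10494 times, which are 410, 409 and 438 CPM. WT replicates 1 and 2 were the highest libraries, and WT replicate 3 lay among the knockout libraries. The means were 493 ± 60.2 CPM in WT and 419 ± 16.3 in knockout ASCs (SD, n = 3). The log2 fold change was -0.23 with an SE of 0.07 (edgeR adjusted p = 0.0220), which is 85.1% of the WT mean.

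The *Meg3* call was lost under several settings. Without WT replicates 1 and 2 the log2 fold change was -0.02, with 1 WT library left. With a score of hepatocyte transcripts as a covariate it was -0.12 (edgeR adjusted p = 0.306). Leaving out WT replicate 1 gave -0.19 (edgeR adjusted p = 0.0885) and WT replicate 2 gave -0.18 (edgeR adjusted p = 0.102). The call was also lost without knockout replicate 1 (-0.20, edgeR adjusted p = 0.0970) and without knockout replicate 2 (-0.21, edgeR adjusted p = 0.0799). Knockout replicates 1, 2 and 3 had 42.8, 159 and 31.0 summed CPM of hepatocyte transcripts and *Meg3* levels of 410, 409 and 438 CPM. *Dlk1* in the WT libraries ranged from 2.87 to 2.97 CPM while these transcripts ranged from 54.1 to 564. The part of hepatocyte RNA in the *Meg3* and *Dlk1* levels was not tested.

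**Figure D2:**
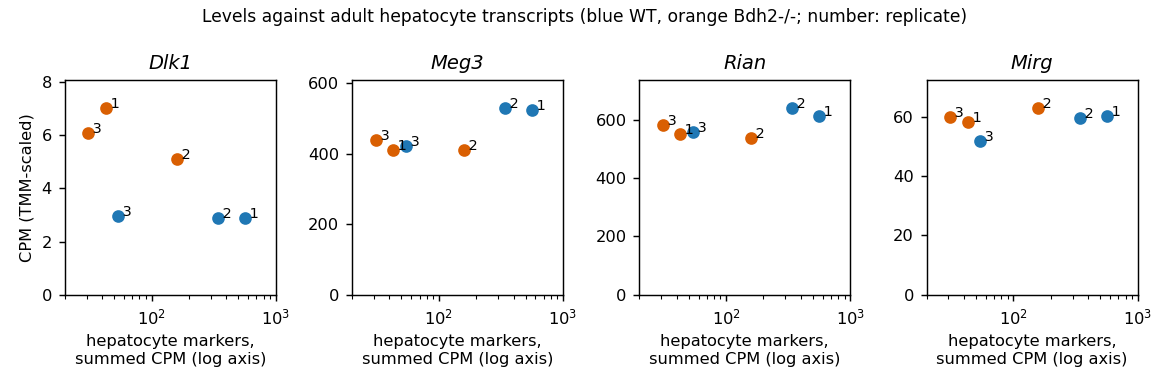
CPM (TMM-scaled) of *Dlk1*, *Meg3*, *Rian* and *Mirg* in each library against the summed CPM of 18 adult hepatocyte genes on a log axis, with blue for WT, orange for *Bdh2*-/- and the replicate number beside each point. WT replicates 1 and 2 lie at the right and are the highest for *Meg3* and *Rian*, whereas *Dlk1* is near 2.9 CPM in all 3 WT libraries.

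*Rian* hosts the tandem C/D box snoRNAs of the locus in its introns and spans chr12:109603940-109661716 on the plus strand. It was counted 11919, 12961 and 14086 times in WT and 15219, 14704 and 13940 times in knockout replicates 1 to 3. Scaled CPM were 605 ± 43.1 and 558 ± 21.7 (SD, n = 3), with overlapping libraries. The log2 fold change of -0.12 (SE 0.06) did not pass the test (edgeR adjusted p = 0.114, 95% interval -0.24 to 0.01). It passed when WT replicate 3 was left out (-0.17, edgeR adjusted p = 0.00810) and with library totals in place of TMM (-0.17, edgeR adjusted p = 0.0256). Without WT replicates 1 and 2 it was -0.0013.

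*Mirg* is the host of the distal microRNA cluster and spans chr12:109729764-109749460 on the plus strand. It was counted 1173, 1203 and 1311 times in WT and 1609, 1720 and 1433 times in knockout replicates 1 to 3. Scaled CPM were 57.3 ± 4.71 and 60.4 ± 2.40 (SD, n = 3), and the libraries overlapped. The log2 fold change was 0.08 (SE 0.06, edgeR adjusted p = 0.337). It passed the test upwards with the hepatocyte covariate (0.19, edgeR adjusted p = 0.0450). Without WT replicates 1 and 2 it was 0.22. The WT library left there, replicate 3, had the lowest *Mirg* level of all libraries, at 51.9 CPM.

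*Rtl1* is a retrotransposon-derived gene needed in the placenta, and lies on the minus strand at chr12:109589193-109600330. It was counted 166, 145 and 172 times in WT and 204, 231 and 168 times in knockout replicates 1 to 3. The libraries overlapped at 6.81 to 8.55 CPM in WT and 7.01 to 8.47 CPM in knockout ASCs. The log2 fold change was 0.03 (SE 0.12, edgeR adjusted p = 0.871, 95% interval -0.23 to 0.29). Its sign turned with library totals (-0.03) and when WT replicate 2 or 3 or knockout replicate 2 was left out, so no direction was given. With WT replicates 1 and 2 left out it was 0.16. An RNA of the maternal chromosome is transcribed antisense to *Rtl1*. It was not said whether the counting used strand, so reads of the pair cannot be told apart, and 8.40% of the exon bases of *Rtl1* are shared with 7 other annotated genes.

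Several of these are microRNA genes that lie opposite *Rtl1*, and they are shown because their products match sites along its transcript. Of 114 mature microRNAs that RefSeq places in the locus, 11 from 6 hairpins were exactly complementary to the 6358-base *Rtl1* transcript of GENCODE M21. One arm of each hairpin is given 5′ to 3′ with its seed, bases 2 to 8, in capitals.
miR-136-3p: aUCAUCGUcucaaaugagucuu
miR-432: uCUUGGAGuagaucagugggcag
miR-434-3p: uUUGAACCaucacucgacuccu
miR-127-3p: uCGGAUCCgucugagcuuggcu
miR-433-3p: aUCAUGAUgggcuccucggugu
miR-431-3p: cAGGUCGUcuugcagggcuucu
Their matches begin at bases 164, 523, 965, 2642, 3749 and 5028 of the *Rtl1* transcript. The 6 seeds all differ, and none is shared with another mature microRNA of the locus. The rows of the 6 hairpins, which overlap exon bases of *Rtl1*, held 0 counts in every library. Libraries of this kind are made from longer RNA, so a 0 says nothing of the mature microRNAs.

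*Dio3*, the deiodinase that inactivates thyroid hormone, is the distal end of the locus at chr12:110279068-110281097 on the plus strand. It was counted 17, 34 and 30 times in WT and 42, 48 and 36 times in knockout replicates 1 to 3. Scaled CPM were 1.25 ± 0.408 and 1.596 ± 0.143 (SD, n = 3), with the second WT library inside the knockout range. The log2 fold change was 0.35 (SE 0.26, edgeR adjusted p = 0.301), and its 95% interval of -0.21 to 0.92 is wide at these counts. It was 0.42 without WT replicates 1 and 2. *Begain*, which encodes a protein of the postsynaptic density, is the proximal end at chr12:109032187-109068217 on the minus strand. It was counted 74, 64 and 95 times in WT and 77, 87 and 86 times in knockout replicates 1 to 3. Its libraries overlapped, and its log2 fold change was -0.17 (SE 0.16, edgeR adjusted p = 0.430, 95% interval -0.53 to 0.18). It was -0.24 without WT replicates 1 and 2.

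**Figure D3:**
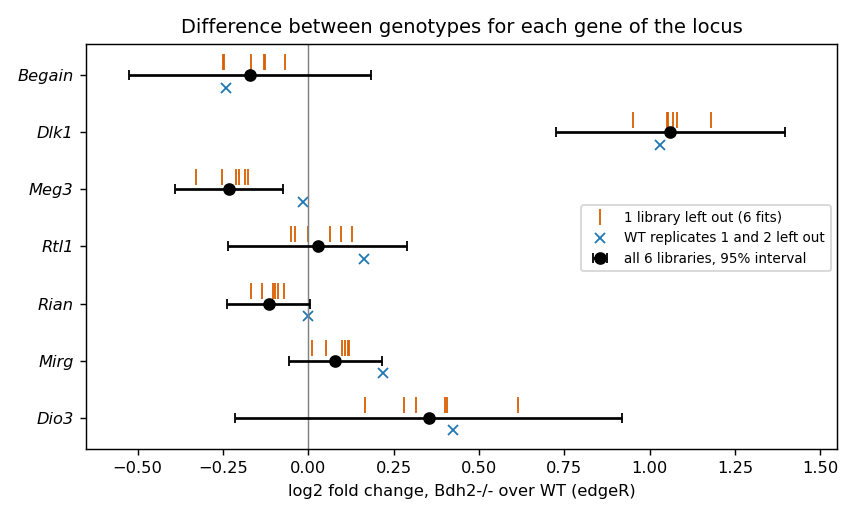
Log2 fold change of each gene of the locus, *Bdh2*-/- over WT, with its 95% interval (black), the 6 values with 1 library left out (orange) and the value without WT replicates 1 and 2 (blue cross). *Dlk1* stays near 1.06 throughout, and *Meg3* moves from -0.23 to -0.02 without those WT libraries.

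Ratios within a library do not depend on how libraries are scaled, and were taken on counts per kilobase. *Mirg* over *Meg3* was 0.286, 0.278 and 0.304 in WT replicates 1 to 3 and 0.353, 0.382 and 0.339 in knockout replicates 1 to 3. The genotypes did not overlap (two-sided exact permutation p = 0.1, the smallest p that 3 against 3 samples allow), and the knockout mean was 1.24 times the WT mean. *Rian* over *Meg3* was 1.16 to 1.31 in WT and 1.31 to 1.34 in knockout ASCs, with overlap (exact permutation p = 0.2). *Rtl1* over *Meg3* was 0.0385 to 0.0464 in WT and 0.0455 to 0.0589 in knockout ASCs, also with overlap (exact permutation p = 0.3). Adjusted over these 3 ratios (Benjamini-Hochberg), the exact permutation p was 0.3 for each.

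Further ratios were added after their values were seen. *Mirg* over *Rian* was 0.232 to 0.246 in WT and 0.257 to 0.293 in knockout ASCs, with no overlap. *Dlk1* over *Rtl1* was 0.379, 0.450 and 0.490 in WT and 1.07, 0.676 and 0.977 in knockout replicates 1 to 3. The ratio was higher in each knockout library than in any WT library, as *Dlk1* itself was. The *Rtl1* row may hold reads of its antisense RNA. *Dlk1* over *Meg3* was 0.0173 to 0.0224 in WT and 0.0398 to 0.0549 in knockout ASCs. *Dio3* over *Meg3* was 0.0149 to 0.0283 in WT and 0.0306 to 0.0383 in knockout ASCs, with no overlap, on 17 to 48 counts of *Dio3*.

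**Figure D4:**
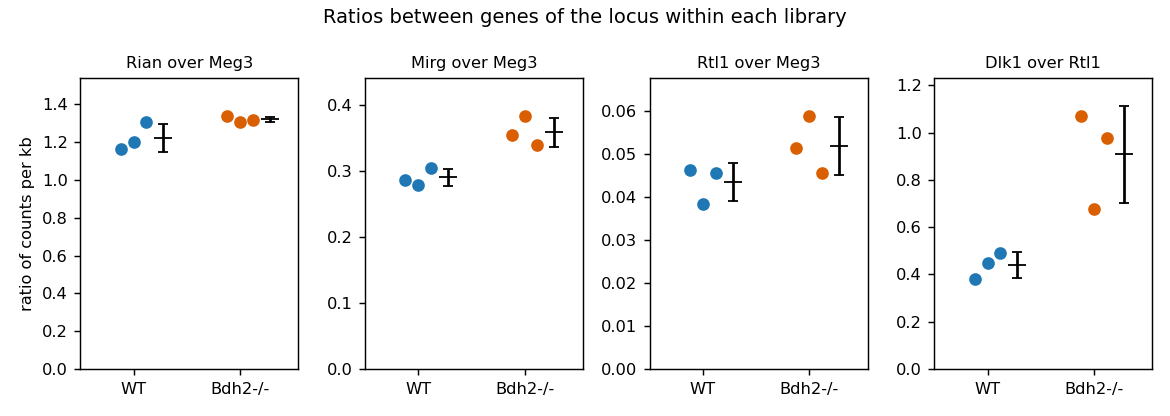
Ratios of counts per kilobase between genes of the locus within each library, for *Rian*, *Mirg* and *Rtl1* over *Meg3* and for *Dlk1* over *Rtl1*, with the mean and SD of 3 libraries and axes starting at 0. The genotypes are separate for *Mirg* over *Meg3* and *Dlk1* over *Rtl1* and overlap for the others. The ratio of *Dlk1* over *Rtl1* was added after its values were seen.

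The table lists 122 genes from *Begain* to *Dio3*, of which 15 could be tested. Of these, 1 was higher (*Dlk1*) and 2 were lower, *Meg3* and the snoRNA gene *Gm24564*, beside 21.0% and 20.8% of all tested genes, and the median was -0.12 on the log2 scale. Without WT replicates 1 and 2 the median was -0.0013. DESeq2 on all 6 libraries called 1 lower. Small RNA genes were numerous but nearly empty. Of 69 microRNA genes, 33 had any count and 1, *Mir3072*, was tested, with a log2 fold change of 0.22 (SE 0.41, edgeR adjusted p = 0.697), and its exon lies within an exon of *Mirg*. Of 23 snoRNA genes, 9 had any count and 3 were tested. None of the 8 snoRNA genes that overlap an exon of *Rian* had a count, whereas 9 of the other 15 did. Of 18 microRNA genes that overlap an exon of any of the 7 genes, 3 had a count, against 30 of the other 51. How reads that match several genes were counted was not given, and its part in these zeros was not tested.

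The tested snoRNA genes all lie within the span of *Rian*, on the same strand. C/D box snoRNAs guide methylation of other RNAs at the ribose, and carry a C box near the 5′ end and a D box near the 3′ end. Their sequences in GENCODE M21 are given with a TGATGA or TGATGG near the 5′ end and the CTGA nearest to the 3′ end in capitals. The 3 genes are shown because they are the snoRNAs of the locus with enough counts for a test.
*Gm24564*: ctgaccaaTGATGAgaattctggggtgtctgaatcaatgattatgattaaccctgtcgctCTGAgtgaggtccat
*Gm23600*: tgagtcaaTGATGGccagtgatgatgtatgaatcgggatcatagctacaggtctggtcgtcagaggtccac
*DQ267102*: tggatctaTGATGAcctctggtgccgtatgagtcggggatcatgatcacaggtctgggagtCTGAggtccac
No such CTGA was found in *Gm23600*. *Gm24564* was counted 27, 19 and 30 times in WT and 14, 21 and 13 times in knockout replicates 1 to 3, and the scaled CPM of the genotypes did not overlap. Its log2 fold change was -0.94 (SE 0.30, edgeR adjusted p = 0.0235). This call was lost in 8 of 15 alternatives, among them when WT replicate 1 or 3 or knockout replicate 1 or 3 was left out, with an adjusted p of up to 0.0968 (edgeR) over these and of 0.143 without both WT replicates 1 and 2. *Gm23600* had a log2 fold change of -0.73 (SE 0.47) and *DQ267102* one of -0.12 (SE 0.28), and neither passed. All snoRNA genes of the locus summed to 3.26 ± 0.172 CPM in WT and 2.21 ± 0.0298 in knockout ASCs (SD, n = 3), without overlap. These sums hold only 63 to 81 counts in WT and 53 to 61 in knockout libraries, and 52.4% of all tested genes did not overlap either. Reads of these short genes and of unspliced *Rian* cannot be told apart in these counts.

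The other tested genes of the interval did not pass. The antisense-strand lincRNA gene *Gm34081*, between *Dlk1* and *Meg3*, had 2.01 ± 0.115 CPM in WT and 1.61 ± 0.222 in knockout ASCs (SD, n = 3), with a log2 fold change of -0.32. *Gm26945*, inside *Rian*, had a log2 fold change of -0.61 (SE 0.28, edgeR adjusted p = 0.0988). *Gm37899*, between *Rian* and *Mirg*, had -0.13 and the pseudogene *Gm3379* had -0.03.

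Beyond the ends of the locus, genes within 1 Mb were called in both directions, where 21.0% of all tested genes were higher and 20.8% lower. Before *Begain*, 4 of 14 tested genes were higher and 2 were lower. The median there was -0.11 on the log2 scale, and -0.17 without WT replicates 1 and 2. *Yy1*, which encodes a zinc finger transcription factor, had a log2 fold change of 0.32 (SE 0.05, edgeR adjusted p = 2.55e-04). *Wdr25* had 0.38, *Eml1* 0.46 and *Ccnk* 0.15, whereas the cholesterol 24-hydroxylase gene *Cyp46a1* had -0.98 and the histidine methyltransferase gene *Setd3* -0.20. After *Dio3*, 3 of 16 were higher and 3 were lower, and without WT replicates 1 and 2 there were 3 of 18 higher and 2 lower. *Amn*, a subunit of the cubilin receptor that is also in the primitive endoderm list, had a log2 fold change of 1.28 (SE 0.17, edgeR adjusted p = 7.95e-05). *Dync1h1*, the dynein heavy chain, had 0.31 and the signalling adaptor gene *Traf3* 0.25. *Zfp839* had -0.46, *Mpc1-ps* -0.47 and the cyclin-dependent kinase 2-interacting protein gene *Cinp* -0.21. Calls lost with 1 library left out (edgeR) were those of *Eml1* without knockout replicate 2 (adjusted p = 0.0660), *Mpc1-ps* without knockout replicate 2 (adjusted p = 0.0537) and *Wdr25* without knockout replicate 1 (adjusted p = 0.0691). *Traf3* was lost without WT replicate 1 or knockout replicate 2 (edgeR adjusted p of up to 0.0662), and *Cyp46a1* without WT replicate 1 or knockout replicate 1 or 2 (edgeR adjusted p of up to 0.103). *Ccnk* kept its call only when WT replicate 3 was the library left out (edgeR adjusted p of up to 0.157).

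**Figure D5:**
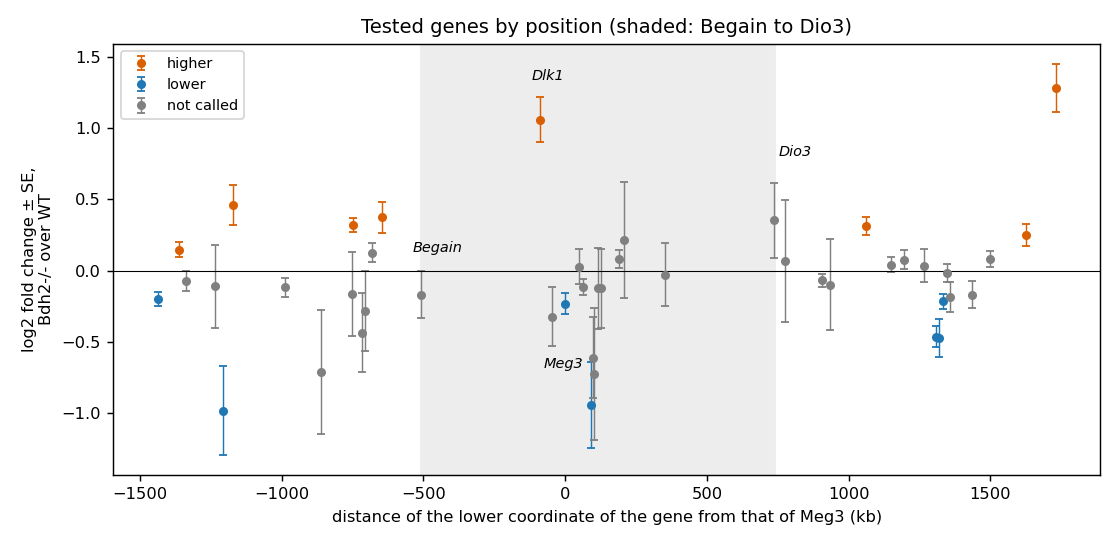
Log2 fold change with SE, *Bdh2*-/- over WT, of the tested genes from 1 Mb before *Begain* to 1 Mb after *Dio3*, by the distance in kb of the lower coordinate of each gene from that of *Meg3*, with the interval from *Begain* to *Dio3* shaded. Called genes are orange (higher) or blue (lower), and *Dlk1* at 1.06 is the only gene called higher within the shaded interval.

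Factors that maintain imprints were then described. Of 17 tested genes of this list, 7 were higher and 0 were lower by edgeR, beside 21.0% and 20.8% of all tested genes, and the median was 0.13 on the log2 scale. At an unadjusted p under 0.05 by edgeR 1 was lower, DESeq2 called 0 lower, and 2 were lower with library totals. With WT replicates 1 and 2 left out the median was 0.12. *Trim28*, the corepressor recruited by KRAB zinc finger proteins, was at 1310 ± 106 CPM in WT ASCs (SD, n = 3) and rose by 0.50 on the log2 scale (SE 0.06, edgeR adjusted p = 2.52e-05). *Aff3*, whose protein binds the control region of the locus, rose by 0.81 (SE 0.10, edgeR adjusted p = 5.25e-05). *Ctcf*, the insulator protein, rose by 0.27. *Zfp57*, which protects methylated imprints, was high in all libraries at 562 ± 30.1 CPM in WT (SD, n = 3), and its log2 fold change of 0.13 did not pass (edgeR adjusted p = 0.0588). *Zfp445*, *Uhrf1* and *Dppa3* did not pass either.

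De novo methylation and TET genes had 6 of 9 tested members higher and 1 lower, with a median of 0.20. The lower gene, *Kdm1b*, a histone demethylase gene named after its values were seen, had a log2 fold change of -0.18 (edgeR adjusted p = 0.0476). With the hepatocyte covariate 0 were lower by edgeR, and DESeq2 called 0 lower (0 also at an unadjusted p under 0.05 in each). Without WT replicates 1 and 2 the median of the list was again 0.20. *Dnmt3l*, the cofactor of de novo methyltransferases, rose by 0.87 on the log2 scale (SE 0.05, edgeR adjusted p = 3.84e-08). *Tet1*, a 5-methylcytosine dioxygenase, rose by 0.21. *Tet2* had 0.16 (edgeR adjusted p = 0.0490), a call lost without WT replicate 1 or 3 or knockout replicate 1 or 3, at most to 0.162. The Polycomb complex PRC2 had 3 of 12 genes higher and 2 lower, with a median of 0.08, close to the 21.0% and 20.8% of all tested genes. With library totals 1 was higher and 2 lower, beside 16.3% and 26.6% of all tested genes. Without WT replicates 1 and 2 the median was 0.05. Among the PRC2 genes, the accessory subunit gene *Jarid2* rose by 0.43 (SE 0.05). *Eed* had 0.15, a call lost without knockout replicate 1 or 2 (edgeR adjusted p of up to 0.0898). *Ezh2* and *Suz12* did not pass.

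Genes that process the small RNAs of the locus were called in both directions, as were all tested genes at 21.0% higher and 20.8% lower. Of 14 microRNA processing genes, 6 were higher and 4 lower, and the median was 0.11 on the log2 scale. With the hepatocyte covariate 1 was lower, and DESeq2 called 2 lower. Without WT replicates 1 and 2 the median was 0.07. The microprocessor genes *Dgcr8* and *Drosha* rose by 0.53 (SE 0.06) and 0.28 (SE 0.06). *Dicer1*, which cuts the precursor, had -0.14 (edgeR adjusted p = 0.0321), a call lost without any 1 library other than WT replicate 1, at most to 0.145. *Ago2* did not pass. Of 11 genes of C/D box snoRNP assembly, 3 were higher and 0 lower by edgeR (0 also at an unadjusted p under 0.05 and by DESeq2), with a median of 0.11. With library totals 0 were higher by edgeR, 1 at an unadjusted p under 0.05, and DESeq2 called 4 higher. The median was 0.07 without WT replicates 1 and 2. The core genes *Fbl*, *Nop56*, *Nop58* and *Snu13* did not pass.

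The Notch pathway, on which DLK1 acts, had 7 of 22 tested genes higher and 5 lower, beside 21.0% and 20.8% of all tested genes, and the median was 0.03 on the log2 scale. Without WT replicates 1 and 2 the median was 0.07. The receptor gene *Notch2* rose by 0.33 (SE 0.05, edgeR adjusted p = 2.48e-04). *Notch1* did not pass, at 0.04, and *Notch3* had -0.20, a call lost without WT replicate 2 or 3 or knockout replicate 1 or 2, at most to 0.119 (edgeR). The ligand genes *Dll1* and *Jag1* rose by 0.73 (SE 0.18) and 0.29 (SE 0.07), and *Dll3* did not pass. The target gene *Hes1* did not pass, at -0.01. The close relative *Dlk2* was at 0.294 CPM in WT ASCs and was not tested.

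Genes of thyroid hormone handling, in which DIO3 acts, had 3 of 10 tested genes higher and 3 lower, beside 21.0% and 20.8% of all tested genes, with a median of -0.09. Over the 11 tested without WT replicates 1 and 2 the median was 0.02. *Klf9*, a target of the hormone receptor, rose by 0.19 on the log2 scale. The receptor gene *Thra* had -0.33 (edgeR adjusted p = 0.0154), a call lost without WT replicate 3 or knockout replicate 2 or 3, at most to 0.0734. *Thrb* and the activating deiodinase gene *Dio2* were too low for a test. Retrotransposon-derived relatives of *Rtl1* had 3 of 7 tested genes higher and 0 lower by edgeR (0 also at an unadjusted p under 0.05), with a median of 0.42. DESeq2 called 2 higher and 0 lower, and the median was again 0.42 without WT replicates 1 and 2. The most abundant, *Peg10*, itself imprinted, rose by 0.98 (SE 0.05, edgeR adjusted p = 2.65e-08).

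Imprinted genes elsewhere in the genome were set beside the locus by the parental chromosome that expresses them. Of 24 tested paternally expressed genes, 15 were higher and 4 lower, beside 21.0% and 20.8% of all tested genes, and the median was 0.50 on the log2 scale. Over the 25 tested without WT replicates 1 and 2 the median was 0.55. *Mest* rose by 1.39 (SE 0.06), *Snrpn* by 0.77, *Peg3* by 0.64 and the zinc finger gene *Plagl1* by 0.56, whereas the growth factor gene *Igf2* fell by 2.17 on the log2 scale (SE 0.16). Of 19 tested maternally expressed genes, 3 were higher and 8 lower, with a median of -0.17. Over the 20 tested without WT replicates 1 and 2 the median was -0.04. The non-coding RNA *H19*, which neighbours *Igf2*, rose by 2.28 (SE 0.07) and the adaptor gene *Grb10* by 0.62. The cell cycle inhibitor gene *Cdkn1c* fell by 0.76 and *Igf2r* by 0.24, and *Phlda2* had -0.22, a call lost without WT replicate 2 or 3 or knockout replicate 2 or 3, at most to 0.173 (edgeR). *Dlk1*, at 1.06, was among the paternally expressed genes that rose, and *Rtl1*, at 0.03, and *Dio3*, at 0.35, did not pass.

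Genes whose pattern over the 6 libraries was most like that of *Meg3* were named by the smallest root mean square difference in centred log2 CPM. The closest 5 outside the interval were *Pigp*, *Rpl7*, *Rbm4b*, *Eif3e* and *Pisd-ps1*, at 0.0353 to 0.0383. They lie on chromosomes 16, 1, 19, 15 and 11. *Rian* differed from *Meg3* by 0.0758 on this measure, *Mirg* by 0.165, *Begain* by 0.174, *Rtl1* by 0.182, *Dio3* by 0.339 and *Dlk1* by 0.607. All points of this likeness share the same 6 libraries.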

How the data were processed

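RNA of 3 WT ASC and 3 *Bdh2*-knockout ASC libraries was sequenced. Adaptor-trimmed reads were mapped by the authors to GRCm38 with HISAT2 2.0.5 and assigned to genes with featureCounts. The deposited values are raw counts for 54715 genes. The annotation release, the strand setting and the treatment of reads with several matches were not given in the sources used here. GENCODE M21 held 99.4% of the identifiers, 98.3% of them with identical ends.

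Counts were tested in R 4.3.3 with edgeR 4.0.16 (TMM, filterByExpr, quasi-likelihood test, 1 factor for genotype, threshold 0.05 after Benjamini-Hochberg adjustment over 16758 genes). Intervals are 95% and use the degrees of freedom of the fit. CPM are TMM-scaled, and FPKM and TPM used the listed gene lengths. Ratios were compared with two-sided exact permutation tests in scipy 1.17.1. The functions were tested on simulated data. Members, lists and tests were chosen with earlier results of these data known. Named were all members, genes within 1 Mb with a mean count of at least 10 that passed or lie in the locus, key genes of each list, and the 5 genes most like *Meg3*, with a pseudocount of 0.5. Sequences came from RefSeq and GENCODE M21. The alternatives were DESeq2 1.42.0, limma-voom (limma 3.58.1), median-of-ratios factors, library totals, no filter, a replicate block, a minimum mean count of 50, each library left out, a hepatocyte score as a covariate, and a test against a fold change of 1.2. Leaving out WT replicates 1 and 2 together was chosen after seeing the data and leaves 1 WT library.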

Additional observations from a re-analysis of the deposited data

How the results depend on the processing

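*Dlk1* was higher in every alternative. Of the 7 genes, the number called lower was 1, and became 2 with library totals, 0 with the hepatocyte covariate and 0 in the test against a fold change of 1.2. It ranged from 0 to 2 with 1 library left out. The number called higher was 1, and became 2 with the hepatocyte covariate. It was 1 with each single library left out. *Rtl1* turned to -0.030 with library totals, and ranged from -0.050 to 0.129 with 1 library left out. The causes of these changes were not tested, except that the test against 1.2 asks for a larger change. The sample labels give no pairing beyond the replicate number. Deviations of same-numbered samples correlated at -0.154, 0.0995 and 0.245, which cannot decide on pairing, as differently numbered samples were not compared. With the replicate number as a block, *Dlk1* had a log2 fold change of 1.05 and *Meg3* -0.23, and 1 of the 7 genes was higher and 1 lower, whereas the calls of *Ccnk*, *Tet2*, *Dicer1* and *Phlda2* were lost. Over all genes 6996 were called, 2457 against a fold change of 1.2 and 4386 without WT replicates 1 and 2. The calls that were higher made up 50.3% and, with library totals, 38.0%. TPM in place of FPKM changes the unit of every level. *Dio3* was not kept by the filter on a mean count of 50. Low counts limit what can be read from *Dio3*, the snoRNA genes and the microRNA genes, and 1 knockout clone cannot be told apart from the genotype.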

Other observations

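The 5 genes outside the interval most like *Dlk1* in centred log2 CPM, named after their values were seen, were *Wnt11*, *Capn3*, *Gm10324*, *Syce1* and *Slc7a8*, at a root mean square difference of 0.0478 to 0.0809. *Wnt11* encodes a secreted signalling protein and was at 3.28 CPM in WT and 6.82 CPM in knockout ASCs. *Syce1*, of the synaptonemal complex of meiosis, was at 11.7 and 24.2 CPM. Among the genes that RefSeq places in the locus, 9 seeds were each shared by at least a pair of mature microRNAs, covering 18 of 113 distinct names.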
